A study of Mus musculus with 6 samples.

Results

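The genes described here are 9 Pax, Six-family and Eya genes of families that are used in the pharyngeal region of the embryo, namely Pax1, Pax3, Pax9, Six2, Six4, Six5, Eya1, Eya2 and Eya4. They were found among the 23290 entries of the authors' table by their RefSeq transcript identifiers, and where a gene has several entries the one kept is chosen by test status and then by the highest mean FPKM; here each gene had 1 entry only. The members were listed with earlier results of these data known, so their levels and differences are a description of the table. RNA had been sequenced from single mouse hearts at E10.5, 3 from mutant and 3 from control embryos, on a C57BL/6 background. Mutant embryos were Nkx2-5Cre/+,Casz1f/f: Casz1, which encodes a zinc finger factor, was floxed on both alleles, and Cre recombinase sat at 1 allele of Nkx2-5. Control embryos were Nkx2-5+/+,Casz1f/+ and so carried 1 floxed Casz1 allele, no Cre and both Nkx2-5 alleles intact. Cre acts in the cells that have used the Nkx2-5 locus, and the genotypes differ at both loci, whose parts cannot be told apart.

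The pharyngeal arches and pouches lie beside the outflow and inflow poles of the looping heart, and pharyngeal mesoderm and neural crest add cells to those poles. In this region Pax transcription factors bind DNA through a paired domain, Six-family factors bind DNA through a homeodomain, and Eya proteins do not bind DNA themselves but enter the nucleus with Six-family factors as coactivators and carry a phosphatase activity. Pax1 and Pax9 are known from pharyngeal pouch endoderm and from the sclerotome of the somites, and Eya1 and Six-family genes from pouch endoderm, arch mesenchyme and sensory placodes.

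Expression was given as FPKM (fragments per kilobase of transcript and per 1e+06 mapped fragments), with 1 pooled value per genotype and none per heart, so neither library depth nor the spread among hearts can be read from it. Of the 9 genes 8 were tested by Cuffdiff, the authors' differential expression tool. Pax1, Pax9 and Six2 rose in mutant hearts at the threshold of q under 0.05, 0 members fell, and 4 reached an unadjusted p below 0.05. The background for a rise at that threshold was 0.305% of 15387 tested entries (47 entries), and for a fall it was 0.117%. An unadjusted p under 0.05 was found in 3.17% of tested entries. Cardiac markers were abundant in both genotypes: cardiac troponin T (Tnnt2) read 1974 FPKM in mutant and 1974 FPKM in control hearts, and Myl7, a light chain of atrial myosin, read 7496 FPKM in mutant and 5080 FPKM in control hearts. Casz1 read 4.68 FPKM in mutant and 6.61 FPKM in control hearts (log2 fold change -0.50, q = 1.00 in the authors' deposited table). These Casz1 values cover the gene as a whole with no value per exon, so loss of the floxed part cannot be read from them. Nkx2-5 read 82.9 FPKM in mutant and 143 FPKM in control hearts (log2 -0.79, q = 0.536 in the authors' deposited table).

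The stretches before the start sites of Pax1, Pax9, Six2 and Six5 are shown because the first 3 are the members that rose and Six5 is the most abundant member and was not called. They come from the RefSeq promoter table for GRCm38.p6, the assembly of the authors' mm10 build, read 5′ to 3′ on the strand of the gene. Capitals mark each match, on either strand, to the motifs searched: the TATA box TATAAA, the GC box GGGCGG, the NKX2-5 element TNAAGTG, the T-box site AGGTGTGA and the GATA site AGATAA. Pax1 is chr2:147364744-147364993 on the plus strand, Pax9 is chr12:56695221-56695470 on the plus strand, Six2 is chr17:85688275-85688504 on the minus strand and Six5 is chr7:19094294-19094543 on the plus strand.
Pax1: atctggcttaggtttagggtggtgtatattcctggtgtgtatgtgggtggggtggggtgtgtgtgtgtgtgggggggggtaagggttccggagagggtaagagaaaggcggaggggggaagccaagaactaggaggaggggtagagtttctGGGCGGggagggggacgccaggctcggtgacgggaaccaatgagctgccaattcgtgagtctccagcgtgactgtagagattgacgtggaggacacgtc
Pax9: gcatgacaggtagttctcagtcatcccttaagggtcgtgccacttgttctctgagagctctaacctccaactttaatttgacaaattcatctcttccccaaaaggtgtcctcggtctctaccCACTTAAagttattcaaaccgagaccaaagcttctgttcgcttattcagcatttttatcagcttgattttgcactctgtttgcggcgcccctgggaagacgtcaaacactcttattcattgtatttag
Six2: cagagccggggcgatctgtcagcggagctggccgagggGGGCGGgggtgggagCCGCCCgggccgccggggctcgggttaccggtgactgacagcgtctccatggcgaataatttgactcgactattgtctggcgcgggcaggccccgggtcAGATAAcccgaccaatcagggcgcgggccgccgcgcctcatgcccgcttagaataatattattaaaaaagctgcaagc
Six5: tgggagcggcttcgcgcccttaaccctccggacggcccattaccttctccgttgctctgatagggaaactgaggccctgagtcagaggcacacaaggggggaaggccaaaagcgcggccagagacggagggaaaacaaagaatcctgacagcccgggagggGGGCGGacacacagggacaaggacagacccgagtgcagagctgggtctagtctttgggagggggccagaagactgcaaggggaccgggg

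These stretches end at the base before the start of the deposited entry for Pax1 and Six5. That of Six2 leaves out the 20 bases next to the start, which an annotated longer first exon covers, and that of Pax9 belongs to a RefSeq start 168 bases before the start of the deposited entry. The RefSeq table matched 6 of the 9 members (these 4, Six4 and Eya4). In the 250 bases before the start, Pax1 had 10 CpG dinucleotides, Pax9 had 7, Six2 had 26 and Six5 had 13, against a median of 6.00 over 32851 windows of all genes. The GC box was found in 5 of the 6 members, against 32.7% of all windows, and Pax9 was the member without it. A member counts if any of its windows matches, whereas the shares are per window. Six4 and Eya4 have windows at alternative starts, and these overlap annotated exons. The NKX2-5 element was found in Pax9 alone of the 6, 128 bases before the start, and in 10.1% of all windows. The GATA site was found in Six2 alone, 98 bases before the start, and in 9.99% of all windows. The TATA box (12.4% of all windows) and the T-box site (1.12%) were found in 0 of the 6. A match of letters is no evidence of binding, and the 3 members that rose had no motif of the 5 in common.

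Pax1, which patterns the pharyngeal pouches and the thymus and parathyroid that arise from them, showed the largest difference of the members. It spans chromosome 2 from 147364994 to 147375048 on the plus strand, with 5 exons. It read 1.64 FPKM in mutant hearts and 0.0306 FPKM in control hearts, so that it was the lowest of the 9 genes in control hearts and ranked 2 of the 9, after Six5, in mutant hearts. The authors' deposited table gives a log2 fold change of 5.74 (implied SE 0.761, 95% interval 4.25 to 7.24, q = 1.76e-10). Its p-value was the 4th smallest of all tested entries and its log2 fold change the 6th largest of the 15301 with a finite fold. At a transcript length of 2643 bases these levels come to about 4.33 fragments per 1e+06 mapped in mutant hearts and 0.0808 in control hearts. With 0.1 FPKM added to both values the log2 fold change was 3.73, and with 1 FPKM it was 1.36.

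Pax9, the closest relative of Pax1, which is needed for pouch derivatives, teeth and palate, rose as well. It spans chromosome 12 from 56695639 to 56711230 on the plus strand, with 4 exons. It read 0.628 FPKM in mutant hearts and 0.0497 FPKM in control hearts, and it ranked 7 of the 9 genes in both genotypes. The log2 fold change in the authors' deposited table was 3.66 (implied SE 0.770, 95% interval 2.15 to 5.17, q = 0.00108). Its interval overlaps that of Pax1, and the difference between the pair was not tested. With 0.1 FPKM added the log2 fold change was 2.28, and with 1 FPKM it was 0.63.

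Pax3, a factor of dorsal neural tube, neural crest and the muscle-forming part of the somite, was too low for a test. It read 0.0939 FPKM in mutant hearts and 0.0411 FPKM in control hearts. Every entry left untested for low expression lay at about 0.1 FPKM or less in both genotypes. It was the lowest of the 9 genes in mutant hearts, and it spans chromosome 1 from 78101267 to 78197136 on the minus strand. The 3 Pax genes together summed to 2.36 FPKM in mutant hearts and 0.121 FPKM in control hearts, with Pax1 making up most of the mutant sum.

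**Figure D1:**
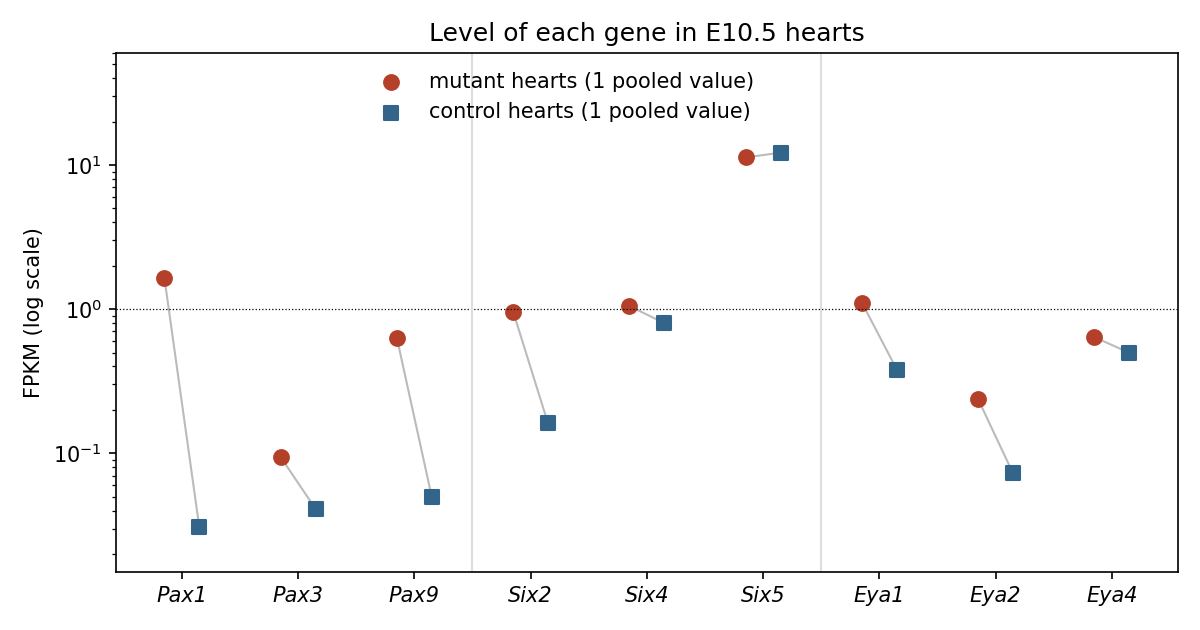
FPKM of each gene (log axis) in mutant hearts (circles, left of each pair) and control hearts (squares, right), with 1 pooled value of 3 hearts per genotype and so no error bar; the dotted line marks 1 FPKM. Pax1 stood at 1.64 FPKM in mutant and 0.0306 FPKM in control hearts, while Six5 stood at 11.3 FPKM in mutant and 12.2 FPKM in control hearts.

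The Six-family genes differed from each other in level and in size of difference. Six2, known from nephron progenitors, arch mesenchyme and the outflow pole of the heart, rose to 0.960 FPKM in mutant hearts, against 0.161 FPKM in control hearts. The authors' deposited table gives a log2 fold change of 2.58 (implied SE 0.643, 95% interval 1.32 to 3.84, q = 0.0193). With 0.1 and 1 FPKM added the log2 fold change was 2.02 and 0.76. Six2 has 2 exons and spans chromosome 17 from 85684268 to 85688254 on the minus strand.

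Six4, which acts with its relatives in muscle precursors and placodes, read 1.05 FPKM in mutant hearts and 0.801 FPKM in control hearts. Its log2 fold change in the authors' deposited table was 0.40 (implied SE 0.432, 95% interval -0.45 to 1.24, q = 1.00), so a difference was not detected. Six5, a broadly expressed factor whose gene lies next to the kinase gene Dmpk, was the most abundant member and read 11.3 FPKM in mutant hearts and 12.2 FPKM in control hearts. Its log2 fold change in the authors' deposited table was -0.11 (implied SE 0.291, 95% interval -0.68 to 0.46, q = 1.00), the only one of the 8 below 0. The 3 Six-family genes summed to 13.3 FPKM in mutant hearts and 13.1 FPKM in control hearts, a sum set by Six5. Six4 spans chromosome 12 from 73100259 to 73113245 on the minus strand and Six5 spans chromosome 7 from 19094544 to 19098345 on the plus strand.

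The Eya coactivator genes gave 0 calls among 3. Eya1, whose loss in mice disturbs ear, kidney, thymus and parathyroid, read 1.11 FPKM in mutant hearts and 0.381 FPKM in control hearts. Its log2 fold change in the authors' deposited table was 1.54 (implied SE 0.586, 95% interval 0.39 to 2.69), where p before adjustment was 0.00871 and q was 0.603. It was the member nearest to the threshold on its outer side, and Six2 was the nearest on its inner side. Eya2, a relative expressed in placodes and muscle precursors, read 0.237 FPKM in mutant hearts and 0.0725 FPKM in control hearts. The authors' deposited table gives a log2 fold change of 1.71 with an implied SE of 1.28, so that the 95% interval ran from -0.80 to 4.22 (q = 1.00). That interval contains the whole interval of Eya1, so the pair cannot be ranked by fold, and with 0.1 FPKM added the log2 fold change was 0.96 for Eya2 and 1.33 for Eya1.

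Eya4, known from the inner ear and linked in human families to hearing loss with heart muscle disease, read 0.639 FPKM in mutant hearts and 0.498 FPKM in control hearts. The log2 fold change in the authors' deposited table was 0.36 (implied SE 0.519, 95% interval -0.66 to 1.38, q = 1.00). The 3 Eya genes summed to 1.98 FPKM in mutant hearts and 0.952 FPKM in control hearts. Eya1 spans chromosome 1 from 14168958 to 14310199, Eya2 chromosome 2 from 165595028 to 165771727 and Eya4 chromosome 10 from 23104168 to 23349903. Other annotated genes lie within the spans of these Eya genes, but none shares an exon with them in the GENCODE annotation.

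**Figure D2:**
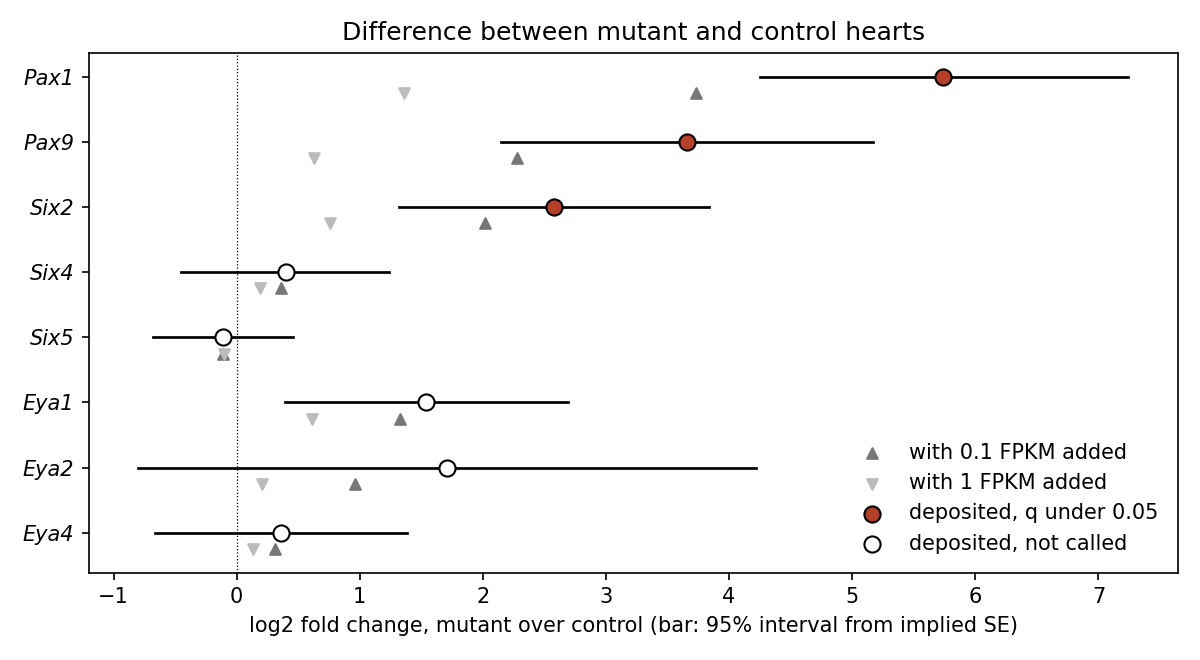
log2 fold change (mutant over control) of the 8 tested genes as deposited (circles, filled where q was under 0.05), with 95% intervals from the implied SE, and with 0.1 or 1 FPKM added to both genotypes (triangles). The intervals of Pax1, Pax9, Six2 and Eya1 lie above 0, and adding 1 FPKM brings Pax1 to 1.36 and Pax9 to 0.63.

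As a group, the genes other than Six5 were scarce in these hearts. In control hearts 8 of the 9 members stood under 1 FPKM, and in mutant hearts 5 did. In mutant hearts the order from high to low was Six5, Pax1, Eya1, Six4, Six2, Eya4, Pax9, Eya2 and Pax3, while in control hearts it was Six5, Six4, Eya4, Eya1, Six2, Eya2, Pax9, Pax3 and Pax1. A single level has no error here, so neighbours in these orders cannot be separated. Without Six5 the members summed to 6.36 FPKM in mutant and 2.03 FPKM in control hearts. Among all entries that were tested or too low for a test, Pax1 lay at percentile 51.5 of FPKM in mutant hearts and 28.5 in control hearts, and Six5 lay at percentile 74.9 in mutant and 75.8 in control hearts.

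Of the 8 tested members, 7 had the higher FPKM in mutant hearts, against 45.4% of all tested entries. Their median log2 fold change was 1.62, beside -0.02 over all tested entries with a finite fold. For 7 of the 8 the mean of the genotypes was under 1 FPKM. Among the 3320 tested entries at that level 20 rose (0.602%), 49.0% had the higher FPKM in mutant hearts, the median log2 fold change was -0.01 and 8.66% of those with a finite fold had a log2 fold change above 1. The median implied SE at that level was 0.617, against 0.343 over all finite entries. Pax1, Pax9 and Eya2 lay under the level needed for a test in control hearts and were tested because of their level in mutant hearts, so these counts and medians describe the members and do not support a shift.

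**Figure D3:**
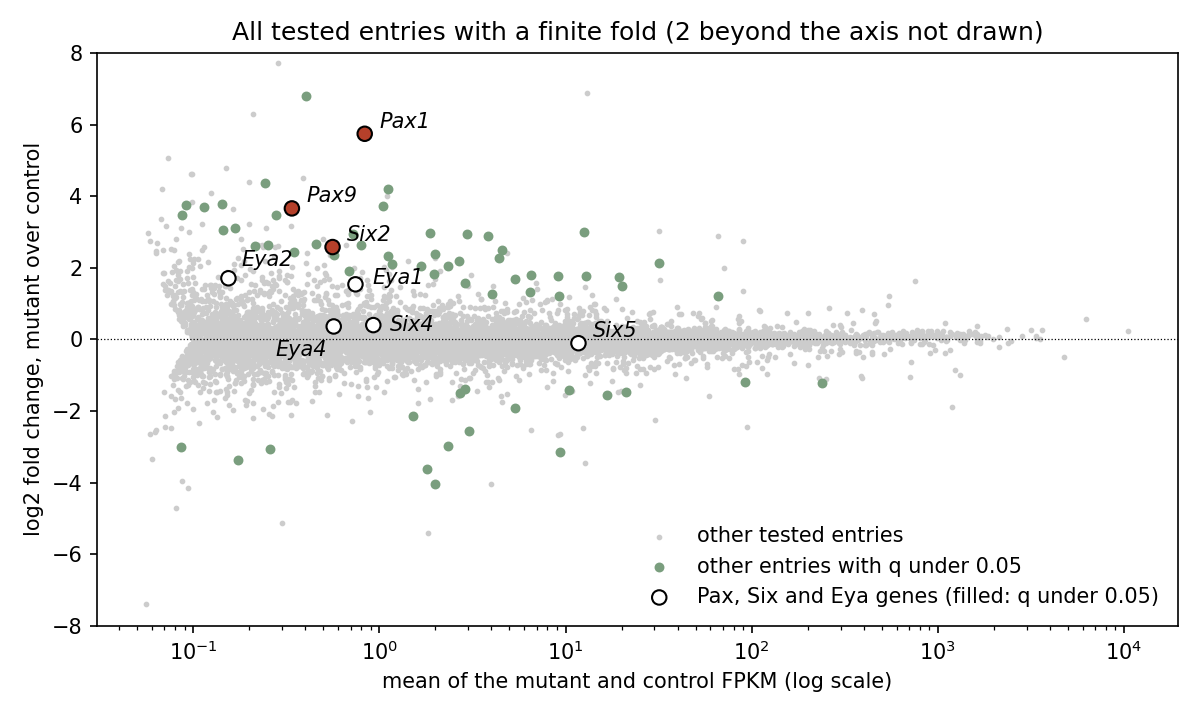
log2 fold change (mutant over control) against the mean of the mutant and control FPKM (log axis) for each tested entry that has a finite fold, with the Pax, Six-family and Eya genes as large circles, filled where q was under 0.05, and other called entries in green; 2 entries beyond 8 on the vertical axis are not drawn. Pax1, Pax9 and Six2 lie at the upper edge of the entries of like level, and Six4, Eya4 and Six5 lie within their bulk.

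The remaining relatives were described through a list of 12 other Pax, Six-family, Eya and Dach genes, of which 6 were tested. In that list 0 members passed in the authors' deposited table, 2 reached an unadjusted p below 0.05, both higher in mutant hearts, and the median log2 fold change was 0.99. Eya3, the widely expressed Eya gene, read 11.5 FPKM in mutant hearts and 12.2 FPKM in control hearts (log2 -0.09), close to Six5 in level. Dach1, a nuclear partner of the Six-family and Eya proteins, read 4.07 FPKM in mutant and 2.71 FPKM in control hearts (log2 0.59, q = 1.00 in the authors' deposited table). Dach2 read 0.150 FPKM in mutant and 0.10 FPKM in control hearts. Pax8, a thyroid and kidney factor, read 0.391 FPKM in mutant and 0.148 FPKM in control hearts (log2 1.40, q = 1.00 in the authors' deposited table).

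Among 13 tested partners and reported targets of Six-family and Eya proteins the authors' deposited table calls 0, and 3 reached an unadjusted p below 0.05. The 3, named after their values were seen, were the muscle factors Myog (0.416 FPKM in mutant and 0.00534 FPKM in control hearts) and Myf5 (0.102 FPKM in mutant hearts and listed at 0 in control hearts) and the growth factor Gdnf (0.131 FPKM in mutant and 0.0451 FPKM in control hearts). Igfbp5, an abundant gene of the list that encodes a binding protein of insulin-like growth factors, read 203 FPKM in mutant and 171 FPKM in control hearts and was not called. The median of this list was 0.24. Myog, Myf5 and Gdnf are also the 3 of the 13 under 0.1 FPKM in control hearts. They were tested because of their level in mutant hearts, which raises that count and median. Of 20 tested genes of pouch and arch patterning, 1 rose and 0 fell. It was Tbx1, a T-box factor of pharyngeal endoderm and mesoderm, at 2.69 FPKM in mutant and 0.647 FPKM in control hearts (log2 2.05, q = 0.0366 in the authors' deposited table). In the pouch list 8 members reached an unadjusted p below 0.05, all higher in mutant hearts, and the median was 0.68. Of the 20, 5 lay under 0.1 FPKM in control hearts and were tested because of their level in mutant hearts, which raises that count and median.

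Genes that lie beside the members in the genome were read as well. Within 250 kb of the members' starts 34 other entries were tested, of which the authors' deposited table calls 0, and 4 reached an unadjusted p below 0.05. Of the 4, 1 lay beside Pax1, 2 beside Pax9 and 1 beside Six4. Near Pax9 the lung and thyroid factor Nkx2-1 read 1.15 FPKM in mutant and 0.186 FPKM in control hearts (log2 2.62, p = 0.00442, q = 0.365 in the authors' deposited table), and the pseudogene Sfta3-ps read 0.316 FPKM in mutant and 0.0548 FPKM in control hearts (log2 2.53). On the other side of Pax9, the mitochondrial carrier gene Slc25a21 read 2.82 FPKM in mutant and 2.59 FPKM in control hearts (log2 0.13). Beside Pax1, AI646519 read 0.157 FPKM in mutant hearts and was listed at 0 in control hearts. AI646519 and Sfta3-ps lay under 0.1 FPKM in control hearts and were tested because of their level in mutant hearts, which raises the count of 4. Around Six5 21 entries were tested and 0 reached an unadjusted p below 0.05 or a call, with Dmpk at 11.3 FPKM in mutant and 11.4 FPKM in control hearts. Eya1 and Eya4 had 0 entries in that window.

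Markers of the tissues around the heart were higher in the same comparison. Of 12 pharyngeal and foregut endoderm markers, all tested, 6 rose in the authors' deposited table, 0 fell and 11 reached an unadjusted p below 0.05, with a median log2 fold change of 2.03. The list summed to 183 FPKM in mutant and 87.5 FPKM in control hearts, of which the keratins, also made by epicardium, are the larger part, and 0 of its members were at 0 in either genotype. The hedgehog ligand Shh read 1.28 FPKM in mutant and 0.166 FPKM in control hearts (log2 2.95, as deposited), Foxa1 read 0.956 FPKM in mutant and 0.188 FPKM in control hearts (log2 2.34), Cldn6 read 7.27 FPKM in mutant and 1.50 FPKM in control hearts (log2 2.27), and Epcam read 4.42 FPKM in mutant and 0.971 FPKM in control hearts (log2 2.19). The part of these and the other surrounding tissues in the Pax, Six-family and Eya values was not tested, and pooled values do not show which hearts carried either signal. In whole hearts, a change in the number of cells of a type and a change in RNA per cell cannot be told apart.

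The somite and sclerotome list, where Pax1 and Pax9 are also used, had 0 calls among 8 tested genes, 2 below 0.05 in unadjusted p and a median of 0.40. The list summed to 43.4 FPKM in mutant and 40.1 FPKM in control hearts, of which Tbx18, Foxc2 and Foxc1, also expressed in epicardium, endothelium or outflow tract, are the larger part, so the sum says little of somite cells. Of the 8 tested genes 1 lay under 0.1 FPKM in control hearts and was tested because of its level in mutant hearts. The sclerotome factor Uncx, too low for a test, read 0.0377 FPKM in mutant and 0.0405 FPKM in control hearts, and Nkx3-2 read 0.497 FPKM in mutant and 0.188 FPKM in control hearts (log2 1.40, q = 1.00 in the authors' deposited table). These 2 genes were named after their values were seen. The members of highest level were Tbx18, at 13.5 FPKM in mutant and 13.6 FPKM in control hearts, and Foxc2, at 12.3 FPKM in mutant and 12.6 FPKM in control hearts.

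The pharyngeal mesoderm list had 1 rise among 10 tested genes, the splanchnic mesoderm factor Foxf1, at 3.75 FPKM in mutant and 0.909 FPKM in control hearts (log2 2.04, q = 0.0113 in the authors' deposited table). In that list 5 genes reached an unadjusted p below 0.05, all higher in mutant hearts. Of the 10, 2 lay under 0.1 FPKM in control hearts and were tested because of their level in mutant hearts, which raises that count. The list had a median of 0.87 and summed to 63.5 FPKM in mutant and 53.7 FPKM in control hearts. Its muscle factor Myf5 had a listed value of 0 in the controls. The neural crest and arch mesenchyme list had 1 rise among 14 tested genes, 9 below 0.05 in unadjusted p, all higher in mutant hearts, and a median of 1.23. Of the 14, 2 lay under 0.1 FPKM in control hearts and were tested because of their level in mutant hearts, which raises that count and median. The list summed to 189 FPKM in mutant and 163 FPKM in control hearts. Surface ectoderm and placode genes had 0 calls among 6 tested and 5 below 0.05 in unadjusted p, with a median of 1.73. They summed to 4.71 FPKM in mutant and 2.57 FPKM in control hearts. The inner ear gene Oc90 of that list, too low for a test, read 0.00186 FPKM in mutant hearts and was listed at 0 in control hearts. Of the 6, 3 lay under 0.1 FPKM in control hearts and were tested because of their level in mutant hearts, which raises that count and median, and 2 genes of the list were not tested. The highest of them were Grhl3, at 2.62 FPKM in mutant and 1.93 FPKM in control hearts, and Pitx1, at 0.767 FPKM in mutant and 0.242 FPKM in control hearts.

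Neural tube genes had 0 calls among 6 tested and 4 below 0.05 in unadjusted p, with a median of 1.52 and sums of 18.7 FPKM in mutant and 14.3 FPKM in control hearts. Neuronal tubulin Tubb3, at 17.3 FPKM in mutant and 13.7 FPKM in control hearts, made up most of both sums. Of the 6, 2 lay under 0.1 FPKM in control hearts and were tested through their level in mutant hearts, while 4 genes of the list were too low for a test, so this count and median are likewise raised. Endothelial genes had 0 calls among 6 tested and 0 below 0.05 in unadjusted p, with a median of -0.19 and sums of 198 FPKM in mutant and 229 FPKM in control hearts. Plvap read 74.4 FPKM in mutant and 85.7 FPKM in control hearts, and Cdh5 read 33.1 FPKM in mutant and 39.6 FPKM in control hearts. Cardiomyocyte genes had 0 calls among 10 tested and 2 below 0.05 in unadjusted p, both lower in mutant hearts: Nkx2-5, which has Cre at 1 allele in mutant embryos, and Nppa, the atrial natriuretic peptide gene, at 888 FPKM in mutant and 1755 FPKM in control hearts. The list had a median of -0.21, with members on both sides of 0, and sums of 21764 FPKM in mutant and 22334 FPKM in control hearts. Myl2, a ventricular myosin light chain, read 3942 FPKM in mutant and 5549 FPKM in control hearts.

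**Figure D4:**
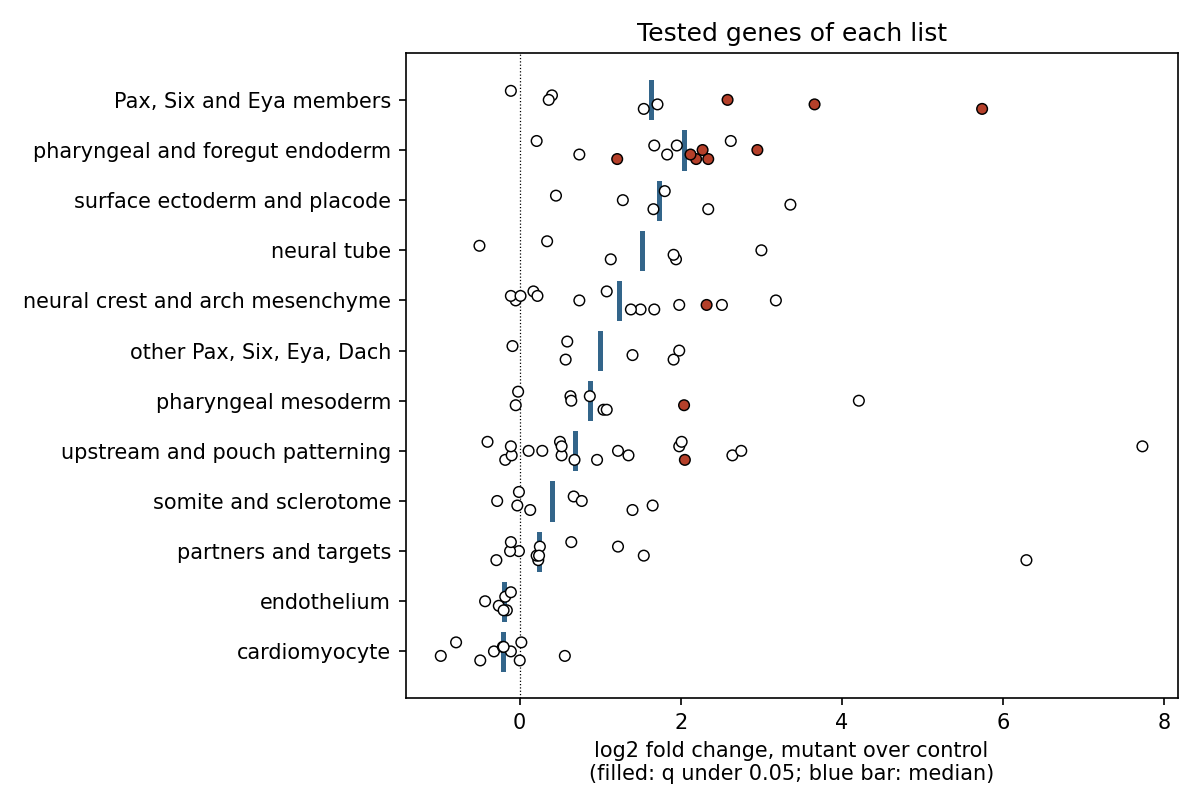
log2 fold change (mutant over control) of the tested genes with a finite fold in each list, 1 circle per gene, filled where q was under 0.05, with the list median as a blue bar. The Pax, Six-family and Eya members span -0.11 to 5.74, the endoderm markers lie from 0.21 to 2.95, and the endothelial genes lie from -0.43 to -0.11.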

How the data were processed

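RNA from 3 mutant and 3 control hearts was sequenced, and the submitters' processing notes name TopHat2 2.0.8, Bowtie2 2.1.0.0, Cufflinks 2.1.1, Cuffdiff and the mm10 build. Per the file headers, the authors deposited FPKM as 1 pooled value per genotype for each gene; the labels do not say how libraries were scaled or dispersion estimated, and depth is unknown. The log2 fold change and the test score (the test statistic, whose sign is opposite) were deposited beside them, with an infinite fold written as a placeholder. For 15387 tested entries the authors deposited a p-value and a q-value. Another 7742 were too low for a test, 96 failed and 65 held too many fragments.

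A two-sided normal p computed from the test statistic equalled the deposited p within 1e-05 for 15301 entries with a finite fold, so each SE was implied as the log2 fold change divided by the statistic, in absolute value. The labels name no litters, so whether hearts shared a litter is unknown. How far the p-values reflect the spread among these hearts is unknown too. Entries were named by RefSeq identifiers (22999) and GENCODE M21 (126), 99.3% in all, and starts were shifted by 1 to count from 1. Levels per 1e+06 fragments were FPKM times the longest matching GENCODE transcript. Calls are q under 0.05. The members and all lists were chosen with earlier results of these data known, and some genes stand in more than 1 list. The rule for named genes took all members, Casz1 and Nkx2-5, relatives, up to 4 called genes per list or else the 2 of highest FPKM, genes starting within 250 kb of a member, and the 3 tested genes nearest to each called member; values of some genes it takes are not reported here, and untested or unremarkable neighbours are given as counts. Alternatives covered the q threshold, filters on FPKM, a minimum fold, pseudocounts and centring. The code of the adjustment and of the SE step was checked on simulated statistics. These were built from the implied SE, so whether that SE holds for these data was not tested. Python 3.11.15, numpy 2.4.6, pandas 2.3.3, scipy 1.17.1 and matplotlib 3.10.9 were used.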

Additional observations from a re-analysis of the deposited data

How the results depend on the processing

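Pax1, Pax9 and Six2 were called at a q threshold of 0.1, with the adjustment recomputed over entries above 0 in both genotypes, and with a minimum change of 4-fold. At a q threshold of 0.01 Pax1 and Pax9 passed, a count of 2. Over entries with at least 1 FPKM in either genotype 1 member was called, Pax1, because Pax9 and Six2 are not in that set, and over entries with at least 1 FPKM in both genotypes 0 members were called, because none of the 3 is in it. Of the genes in the context lists 9 were called, against 2 at a q threshold of 0.01 and 2 with at least 1 FPKM in both genotypes. No direction of a member reversed with pseudocounts or with centring on the median of -0.017. With 1 FPKM added, 5 of the 8 log2 fold changes moved by more than their implied SE. No paired analysis was possible because the table holds 1 pooled column per genotype and none per heart, and leaving out single hearts was not possible for the same reason. Below 1 FPKM the levels rest on few fragments of unknown number.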

Other observations

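The tested entries nearest to each called member in the plane of log2 (FPKM + 0.1) in mutant and control hearts were read off as a description over the 2 pooled values. Nearest to Pax9 were the arch homeobox gene Dlx6, at 0.600 FPKM in mutant and 0.0664 FPKM in control hearts (q = 0.351 in the authors' deposited table), then Galnt3, a glycosyltransferase gene, at 0.510 FPKM in mutant and 0.0455 FPKM in control hearts (q = 0.00118), and Tmsb15a, at 0.742 FPKM in mutant and 0.0329 FPKM in control hearts (q = 1.00). Nearest to Six2 were the forkhead genes Foxf2, at 0.909 FPKM in mutant and 0.179 FPKM in control hearts (q = 0.0589 in the authors' deposited table), and Foxa1, at 0.956 FPKM in mutant and 0.188 FPKM in control hearts (q = 0.0451), followed by G530011O06Rik. Nearest to Pax1 were 3 entries of microRNA genes, all with q = 1.00 in the authors' deposited table. Of these 9 neighbours Galnt3 and Foxa1 were called.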
